A study of Mus musculus with 9 samples.

Results

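The prostaglandin synthesis genes described here are the phospholipase Pla2g4a, the cyclooxygenases Ptgs1 and Ptgs2, and the prostaglandin E synthases Ptges, Ptges2 and Ptges3. They were taken by name from the table of values, which holds 12339 genes. All 6 listed genes had values, and all 6 were among the 12326 genes tested. The names were chosen with earlier results of these data known, so the choice was not independent of the group comparisons; of the names, those present in the table were kept.

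RNA was sequenced from KP-GFP cells, mouse lung tumour cells of the C57BL/6 strain that carry GFP. The labels give no further allele. Spheroids of 2500 tumour cells were kept for 7 days alone, with 5000 lung tissue-resident macrophages (TRMs, labelled alveolar macrophages), or with 5000 bone-marrow monocytes. GFP-positive cells were then sorted from 32 pooled spheroids per condition, and each of the 3 groups has 3 libraries. The labels do not say that the replicates were separate cultures, so the p-values cover only sample-to-sample spread, part of which may be technical. Libraries are named by group and number, such as TRM 2. In bulk RNA, fewer cells that express a gene and less RNA per cell cannot be told apart.

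Prostaglandins are lipid signals made from arachidonic acid. Cytosolic phospholipase A2 (Pla2g4a) frees arachidonic acid from membranes, and the cyclooxygenases COX-1 (Ptgs1) and COX-2 (Ptgs2) turn it into prostaglandin H2. Terminal synthases make the final products: Ptges, the inducible microsomal enzyme, converts prostaglandin H2 into prostaglandin E2, a product known for its roles in inflammation and in epithelial tumours. COX-1 is usually described as the constitutive form and COX-2 as the form induced by cytokines, growth factors and stress. Ptges2 is a second membrane-associated synthase, and Ptges3 is also known as p23, a co-chaperone of HSP90.

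On the GRCm38 (mm10) assembly all 6 are annotated as protein-coding genes. Ptgs2 lies on chromosome 1 from 150100031 to 150108227 on the plus strand. Pla2g4a lies on the minus strand of the same chromosome, from 149829618 to 149961290, so that 138740 bases separate it from the start of Ptgs2. Chromosome 2 holds Ptges (30889471 to 30929863, minus strand), Ptges2 (32395896 to 32405772, plus strand) and Ptgs1 (36230426 to 36252272, plus strand). Ptges3 is on chromosome 10, from 128058954 to 128077272 on the plus strand. Of the 50-base windows of Ptges3 transcripts 19.6% also occur in other annotated genes, chiefly its processed pseudogene, so its value is uncertain. For Ptgs1 the share was 2.63%, through an antisense transcript, and for Ptgs2, Ptges and Pla2g4a no window was shared.

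The 250 bases before the RefSeq start (GRCm38.p6) are shown for the 3 genes whose values differed between groups in the tests below, because these regions differ in composition. Each is written 5′ to 3′ on the gene's strand, with capitals marking matches to 8 short motifs on either strand.
Ptgs1, chromosome 2, 36230176 to 36230425, plus strand: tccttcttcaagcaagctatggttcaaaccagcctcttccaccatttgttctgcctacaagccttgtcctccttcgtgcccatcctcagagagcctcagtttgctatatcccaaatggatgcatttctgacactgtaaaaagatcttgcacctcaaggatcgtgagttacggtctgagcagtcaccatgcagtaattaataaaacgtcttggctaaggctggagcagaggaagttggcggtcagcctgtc
Ptgs2, chromosome 1, 150099781 to 150100030, plus strand: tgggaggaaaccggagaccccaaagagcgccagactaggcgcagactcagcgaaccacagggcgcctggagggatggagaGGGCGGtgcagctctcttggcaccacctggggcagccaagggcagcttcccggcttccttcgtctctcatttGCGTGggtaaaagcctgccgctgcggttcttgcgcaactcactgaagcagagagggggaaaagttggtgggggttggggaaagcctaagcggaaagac
Ptges, chromosome 2, 30903298 to 30903547, minus strand: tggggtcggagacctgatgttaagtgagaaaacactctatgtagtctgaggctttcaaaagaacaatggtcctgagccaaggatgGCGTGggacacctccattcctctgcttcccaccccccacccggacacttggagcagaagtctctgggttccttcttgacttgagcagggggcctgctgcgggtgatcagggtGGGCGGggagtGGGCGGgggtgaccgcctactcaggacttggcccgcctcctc
The motifs were the TATA box (TATAAA, in 12.4% of all 32851 windows of the same length), the CCAAT box (CCAAT, 33.8%), the GC box (GGGCGG, 32.7%) and the CRE core (TGACG, 17.8%). The others were the E-box (CACGTG, 6.02%), the AP-1 site (TGANTCA, 6.75%) and the hypoxia element cores ACGTG (16.6%) and GCGTG (28.2%); each E-box match also contains ACGTG. None of these strings occurred in the Ptgs1 window, whose GC content was 48.0%. The Ptgs2 window (61.6% GC) held GGGCGG starting 170 bases and GCGTG starting 98 bases before the start. The Ptges window (59.6% GC) held GCGTG starting 165 bases before the start and GGGCGG starting 53 and 42 bases before it. This window lies inside the gene span given above, because the 2 annotations used (RefSeq here, GENCODE M21 there) place the start of Ptges differently. Members called in no comparison held such strings too. GCGTG started 96 bases before Ptges2, 213 and 21 before Ptges3, and 235 before Pla2g4a. Ptges3 also held GGGCGG (250, 118 and 79 bases before the start), and Ptges2 the E-box (77). Another window of Pla2g4a held the TATA box (200). The median GC content of all windows was 52.4%. In the Ptgs2 window 183 bases are also exon of Ptgs2os, an annotated transcript on the opposite strand. These matches describe the letters and not the use of any site.

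Values are given as CPM, read counts scaled to a fixed library size. Libraries held 16001895 to 32771448 reads, and mitochondrial transcripts took 0.288% to 0.667% of them. Across all tested genes limma called 2262 with TRMs against alone (1257 higher, 1005 lower), 3366 with monocytes against alone (1806 and 1560), and 49 between the co-cultures (40 higher with TRMs, 9 lower). With scaling by library totals the splits were 1003 higher and 1302 lower with TRMs, 1603 and 1758 with monocytes, and 35 and 16 between the co-cultures. On the second principal component (20.9% of the variance) monocyte 3 stood at -75.9 and the other libraries between -32.9 and 50.3, so results are also given without it. Of 9 epithelial tumour markers 8 had values, with a summed level of 10431 to 19092 CPM per library. Of 30 macrophage and monocyte markers 17 had values, and no library had over 2 of them at 0 reads. Their sum lay between 208 and 295 CPM alone, 202 and 364 CPM with TRMs, and 204 and 296 CPM with monocytes. Cd14 was the highest of these markers in every library. It was at 166 ± 55.8 CPM alone, 128 ± 65.1 with TRMs and 123 ± 37.6 with monocytes (SD, n = 3). The sum therefore says little about the lower markers. CD45, the pan-leukocyte surface protein (Ptprc), was at 1.93 ± 1.34, 1.95 ± 2.19 and 0.241 ± 0.287 CPM (SD, n = 3). Mrc1, the mannose receptor of macrophages, rose from 5.12 ± 0.211 CPM alone to 32.9 ± 9.27 with TRMs and 39.2 ± 7.49 with monocytes (SD, n = 3). F13a1, a monocyte gene, rose from 0.96 ± 0.303 to 13.4 ± 3.82 and 13.4 ± 5.38 (SD, n = 3). These were the 2 macrophage and monocyte markers called with TRMs. With monocytes 4 others fell: Chil3 (10.1 ± 6.17 to 0.766 ± 0.443 CPM), Plac8 (46.3 ± 5.03 to 23.1 ± 16.4 CPM), Siglecf (1.44 ± 0.371 to 0.121 ± 0.0839 CPM; SD, n = 3) and Ptprc. Of the epithelial markers, Cdh1, Cldn4 and Cldn7 fell with monocytes, and Cldn4 fell with TRMs. The part of any macrophages or monocytes left among the sorted cells in the values below was not tested.

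Of the 6 members 3 were called in at least 1 comparison. Ptges, the inducible prostaglandin E synthase, rose 2.93-fold with TRMs and 1.52-fold with monocytes. Ptgs1, which encodes COX-1, rose 4.73-fold with monocytes. Ptgs2, which encodes COX-2 and was the most abundant of the 6, was 1.42-fold lower with TRMs, which did not pass the test, and fell 1.45-fold with monocytes. Pla2g4a, Ptges2 and Ptges3 passed in no comparison.

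**Figure D1:**
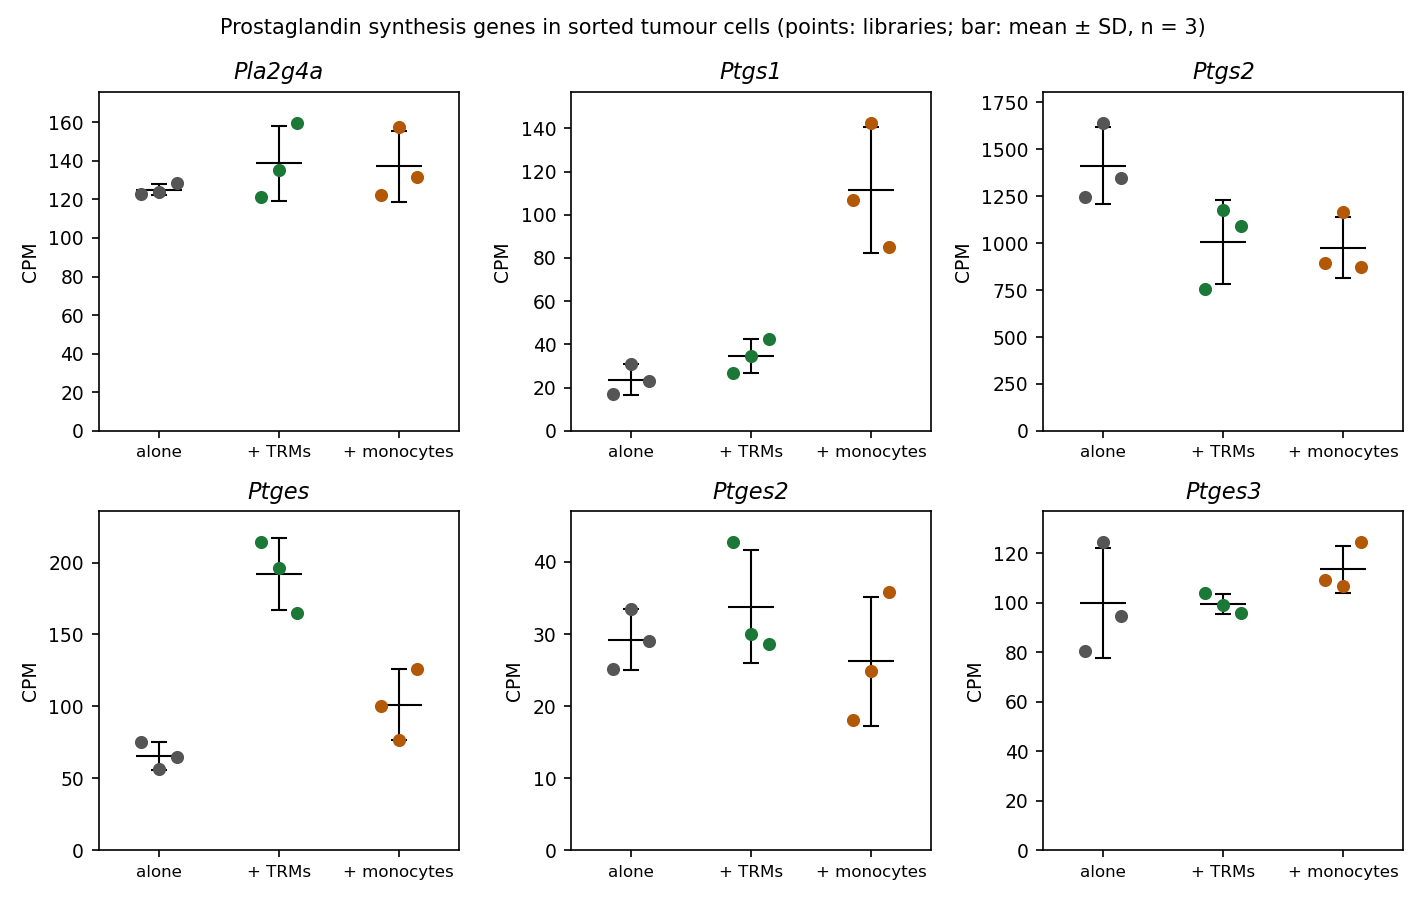
Level of each gene (vertical axes, CPM, each from 0) in the 3 libraries of each group; points are libraries and bars the mean ± SD. Ptgs1 with monocytes lies at 85.0 to 143 CPM above all other libraries (17.0 to 42.6), and Ptges with TRMs lies at 165 to 214 above all others (56.4 to 126).

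Of the members, Pla2g4a acts at the first step, the release of arachidonic acid. Pla2g4a was at 123, 124 and 128 CPM alone, 121, 135 and 159.7 CPM with TRMs, and 122, 158 and 132 CPM with monocytes. The groups overlapped. The log2 difference from alone was 0.14 with TRMs (95% interval of the fold 0.891 to 1.37, limma adjusted p = 0.551) and 0.13 with monocytes (0.881 to 1.35, limma adjusted p = 0.552). Changes larger than these bounds lie outside the intervals, and smaller ones lie within them.

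Of the cyclooxygenases, Ptgs1 was at 17.0, 31.1 and 23.1 CPM alone, 27.0, 34.9 and 42.6 CPM with TRMs, and 107, 143 and 85.0 CPM with monocytes. The 3 monocyte libraries lay above all 6 others, and the TRM libraries overlapped those alone. The means were 23.7 ± 7.08, 34.8 ± 7.79 and 111 ± 29.1 CPM (SD, n = 3). With monocytes Ptgs1 rose 4.73-fold (log2 2.24, SE 0.25, limma adjusted p = 4.52e-05; higher in 3 of 3 libraries). With TRMs the log2 difference was 0.57 (1.49-fold, limma adjusted p = 0.132), and it passed only without alone 2 (0.0497) among 18 other settings. The rise with monocytes passed in all 18, with log2 values between 2.02 and 2.46; without monocyte 3 it was 2.42. In the monocyte libraries 7399 reads came from Ptgs1. Of the myeloid markers, 8189 came from Cd14, 2617 from Mrc1, 1580 from Plac8, 1454 from Lyz2 (lysozyme) and 866 from F13a1. Chil3 had 49 reads there, Ptprc 15 and Siglecf 7. The libraries alone, with no added cells, held 1835 reads of Ptgs1, 13087 of Cd14, 3578 of Plac8 and 1860 of Lyz2. Mrc1 had 396 reads alone, F13a1 77, Chil3 832, Ptprc 138 and Siglecf 114. These reads are not scaled for depth or gene length. Of these myeloid markers Mrc1 and F13a1 rose with monocytes (7.57-fold and 13.4-fold), and Chil3, Plac8, Siglecf and Ptprc fell. Cd14 and Lyz2 were among the 11 of 17 markers that were not called with monocytes. With TRMs Mrc1 and F13a1 rose 6.23-fold and 14.0-fold, and Ptgs1 was not called there. Myeloid cells are known to express COX-1, and the part of any such cells in the Ptgs1 values was not tested.

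Ptgs2 was at 1247, 1641 and 1349 CPM alone, 755, 1177 and 1092 CPM with TRMs, and 892, 1167 and 871 CPM with monocytes. All 6 co-culture libraries lay below the 3 libraries alone. The means were 1412 ± 204, 1008 ± 223 and 977 ± 165 CPM (SD, n = 3). The fall with monocytes was 1.45-fold (log2 -0.54, SE 0.19, limma adjusted p = 0.0496). That call was lost in edgeR (0.0512), with log2(value + 1) (0.0507), and without alone 1 (0.0641), alone 2 (0.15) or alone 3 (0.0985), TRM 2 (0.0516) or TRM 3 (0.0642), or monocyte 1 (0.123) or monocyte 3 (0.12). With TRMs the log2 difference was -0.50 (SE 0.19, limma adjusted p = 0.0826), and Ptgs2 passed in DESeq2 (0.036), with scaling by library totals (0.0352) and with the replicate block (0.0249). In the authors' deposited table the false discovery rate of Ptgs2 was 0.0305 with TRMs and 0.0102 with monocytes, at log2 differences of -0.51 and -0.55.

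Of the 3 prostaglandin E synthase genes only Ptges was called in any of the 3 limma comparisons. Ptges was at 75.3, 56.4 and 64.9 CPM alone, 214, 197 and 165 CPM with TRMs, and 100.1, 76.9 and 126 CPM with monocytes. The 3 groups did not overlap in any pair. The means were 65.5 ± 9.46, 192 ± 24.9 and 101 ± 24.6 CPM (SD, n = 3). The rise with TRMs was 2.93-fold (log2 1.55, SE 0.18, limma adjusted p = 0.000111; higher in 3 of 3 libraries) and passed in all 18 other settings, with log2 values from 1.45 to 1.66. The rise of Ptges with monocytes was 1.52-fold (log2 0.61, SE 0.18, limma adjusted p = 0.0265). It was lost without alone 2 (0.0892) or alone 3 (0.0737), or monocyte 1 (0.0597) or monocyte 3 (0.0915).

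Ptges2 was at 25.1, 33.5 and 29.0 CPM alone, 42.8, 30.03 and 28.6 CPM with TRMs, and 18.03, 24.8 and 35.8 CPM with monocytes. All groups overlapped. The fold against alone had a 95% interval of 0.794 to 1.66 with TRMs (limma adjusted p = 0.64) and 0.602 to 1.26 with monocytes (limma adjusted p = 0.579). Ptges3 was at 80.6, 124 and 94.8 CPM alone, 104, 99.0 and 95.9 CPM with TRMs, and 109, 107 and 125 CPM with monocytes. Its intervals against alone were 0.799 to 1.28 with TRMs (limma adjusted p = 0.955) and 0.909 to 1.46 with monocytes (limma adjusted p = 0.371). The libraries with TRMs lay below those with monocytes, with no call between them (limma adjusted p = 0.72).

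In counts, 1 of 6 members was called with TRMs, beside 18.4% of all tested genes; it rose, as did 10.2% of all genes. None fell in limma or edgeR (8.15% of all genes in limma), 1 fell in DESeq2, and 1 was lower at an unadjusted p under 0.05, in each case Ptgs2. With monocytes 3 members were called, beside 27.3% of all genes. Of these 2 rose and 1 fell, where 14.7% were called higher and 12.7% lower. The count with monocytes was 1 without alone 2 or alone 3, or monocyte 1 or monocyte 3, and in each case the remaining call was Ptgs1. Libraries of the groups did not overlap for 2 members with TRMs (39.3% of all genes) and 3 with monocytes (40.5%). The median log2 difference of the members was 0.17 with TRMs and 0.16 with monocytes, beside -0.00191 and -0.0164 over all genes. The comparisons against alone share the same 3 control libraries.

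**Figure D2:**
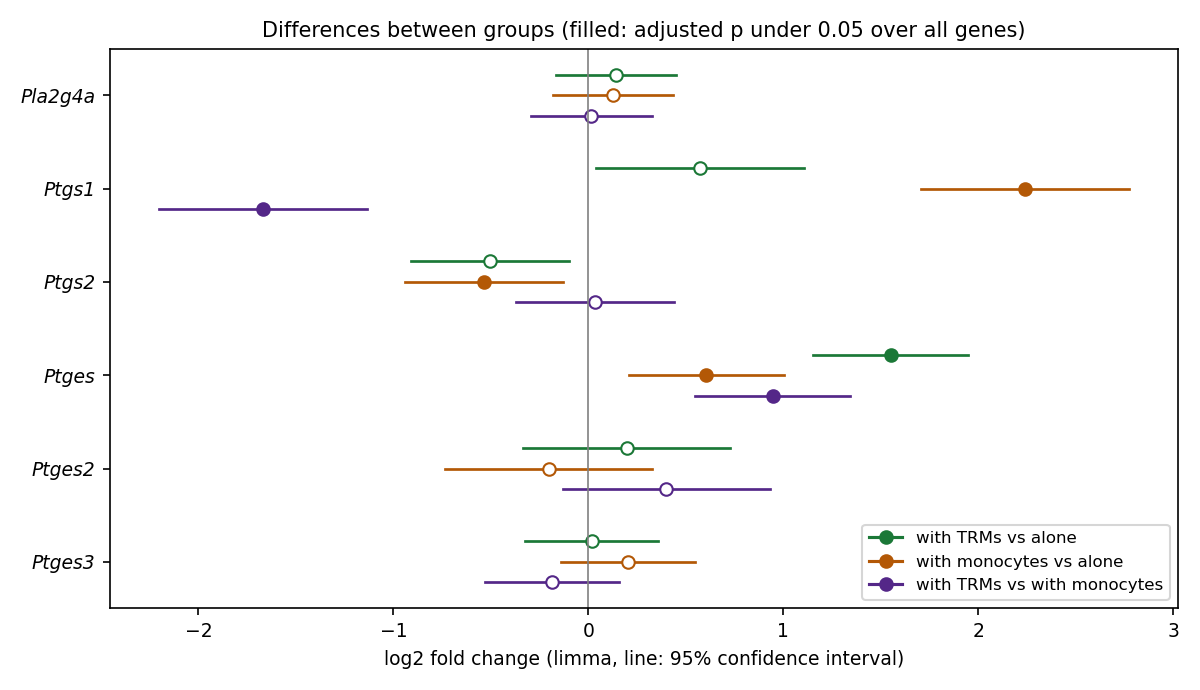
Log2 fold change of each member (horizontal axis) in the 3 comparisons, with 95% confidence intervals from limma; filled points have an adjusted p under 0.05 over all genes. Ptges with TRMs (1.55) and Ptgs1 with monocytes (2.24) lie farthest from 0 against alone, and Ptgs1 lies at -1.67 between the co-cultures.

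The sorted cells of the co-cultures were also compared directly with each other. Ptgs1 was 3.18-fold lower with TRMs than with monocytes (log2 -1.67, SE 0.25, limma adjusted p = 0.0148; 3 of 3 libraries lower than every monocyte library). Ptges was 1.93-fold higher with TRMs (log2 0.95, SE 0.18, limma adjusted p = 0.0454; 3 of 3 higher). Thus 2 members were called, beside 0.398% of all genes, 1 in each direction, where 0.325% of all genes were called higher with TRMs and 0.073% lower. By p-value Ptgs1 ranked 8 and Ptges 47 of the 12326 genes, and Ptgs1 was 1 of the 9 genes called lower with TRMs. Non-overlapping libraries were found for 3 members, against 16.2% of all genes. For Ptgs2 the difference was 0.03 on the log2 scale (fold 1.02, 95% interval 0.772 to 1.35, limma adjusted p = 0.977).

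Both calls were lost in some fits without a single library, which also leave fewer libraries for the test. Ptgs1 was lost without TRM 1 (0.0775) or TRM 2 (0.0872), or monocyte 1 (0.0557) or monocyte 2 (0.0694), with log2 values from -1.85 to -1.48 over all settings. Ptges was lost in edgeR (0.0539), with scaling by library totals (0.0571), with the third group left out of the fit (0.0611), and without alone 1 (0.0558) or alone 3 (0.0826), TRM 1 (0.179), TRM 2 (0.167) or TRM 3 (0.0779), or monocyte 1 (0.11) or monocyte 2 (0.172). Without monocyte 3 the adjusted p was 0.00762 for Ptgs1 and 0.0123 for Ptges. No member was called without TRM 1 or TRM 2 or without monocyte 1 or monocyte 2, and 1 member, Ptgs1, was called without alone 1 or alone 3 or TRM 3. For all genes the number called was 27, 97 and 26 without alone 1, alone 2 and alone 3. It was 7, 0 and 6 without TRM 1, TRM 2 and TRM 3, and 13, 7 and 134 without monocyte 1, monocyte 2 and monocyte 3.

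**Figure D3:**
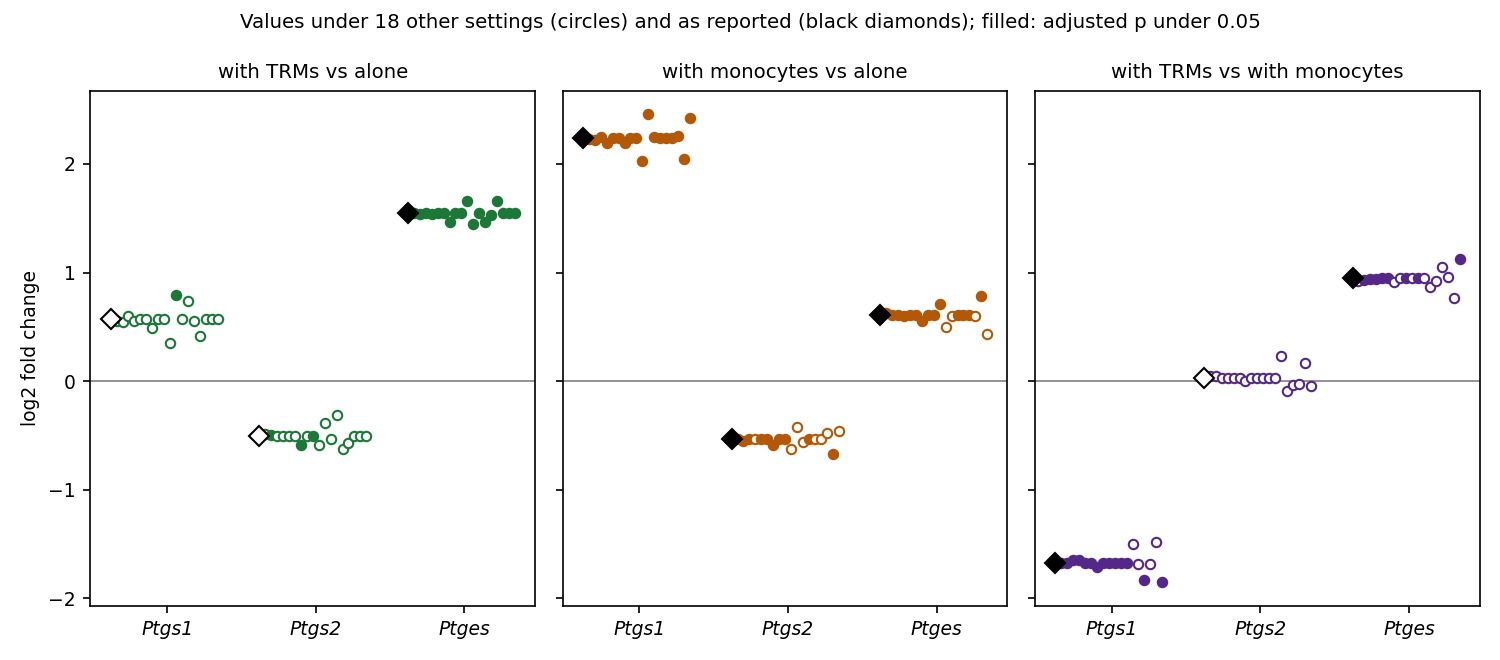
Log2 fold changes (vertical axis) of Ptgs1, Ptgs2 and Ptges as reported (diamonds) and under 18 other settings (circles), one panel per comparison; filled symbols have an adjusted p under 0.05. Every setting keeps Ptges with TRMs (1.45 to 1.66) and Ptgs1 with monocytes (2.02 to 2.46) filled, while Ptgs2 changes between filled and open.

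Levels of different genes were compared per length, as CPM per kilobase of annotated exon. Alone, Ptgs2 stood at 308 ± 44.6, followed by Ptges3 (45.1 ± 10.1), Pla2g4a (19.6 ± 0.473), Ptges (16.7 ± 2.41), Ptgs1 (6.11 ± 1.82) and Ptges2 (5.77 ± 0.83; SD, n = 3 each). The last pair differed by less than its spread. With TRMs Ptges stood at 48.8 ± 6.35 and Ptges3 at 44.9 ± 1.83, and their libraries overlapped. With monocytes Ptgs1 (28.7 ± 7.48), Ptges (25.7 ± 6.27) and Pla2g4a (21.5 ± 2.88) overlapped one another. Ptgs2 remained highest of the 6 in every library, at 165 to 358 CPM per kilobase.

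The makeup of the cyclooxygenase transcripts was read as shares, for which the design allows no call. Ptgs1 made up 1.58%, 2.19% and 1.98% of the summed Ptgs1 and Ptgs2 level per kilobase alone. The shares were 4.05%, 3.37% and 4.4% in the TRM libraries and 12.4%, 12.6% and 10.3% in the monocyte libraries. The 3 groups did not overlap. Each pair of groups gave p = 0.1 in an exact two-sided permutation test, the smallest value that 3 against 3 libraries allow. The summed level was 314 ± 46.4 alone, 229 ± 50.3 with TRMs and 242 ± 43.2 with monocytes (SD, n = 3). Ptges made up 31.7%, 18.6% and 25.4% of the 3 prostaglandin E synthase transcripts alone. The values were 49.6%, 49.7% and 46.2% with TRMs (exact permutation p = 0.1), and 32.6%, 26.9% and 33.6% with monocytes (exact permutation p = 0.2).

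**Figure D4:**
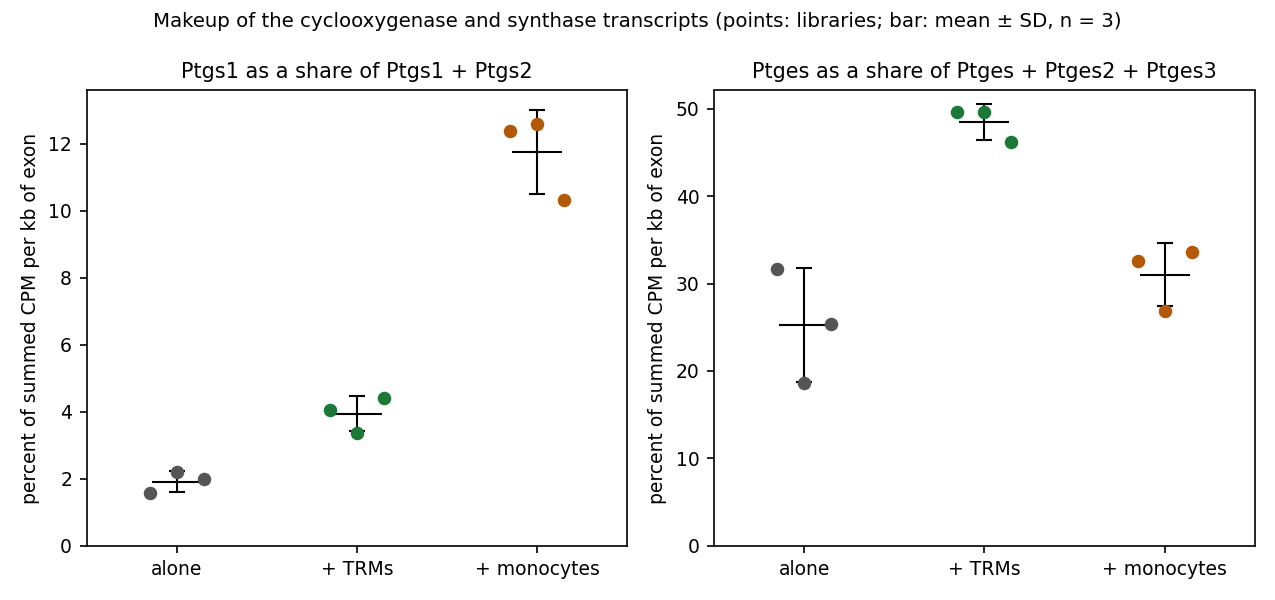
Left, Ptgs1 as a percentage of Ptgs1 plus Ptgs2; right, Ptges as a percentage of the 3 prostaglandin E synthase genes, both from CPM per kilobase of exon. Points are libraries and bars the mean ± SD; the Ptgs1 share is 10.3% to 12.6% with monocytes and 1.58% to 2.19% alone, and the Ptges share is 46.2% to 49.7% with TRMs.

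The genes that surround these enzymes were read from 9 lists of 104 names, of which 68 were tested. With TRMs 10 rose and 11 fell, where 10.2% of all tested genes were called higher and 8.15% lower. With monocytes 17 rose and 13 fell, where 14.7% and 12.7% were; between the co-cultures none was called in limma or edgeR, 4 were called in DESeq2 and 12 had an unadjusted limma p under 0.05. List medians below are log2 differences, with medians over all genes as given above. With TRMs the risen numbered 5 without TRM 2, and the fallen 5 without alone 3 and 7 without TRM 2. With monocytes the fallen numbered 6 without alone 1 and 8 without alone 3.

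Among transporters and receptors, Slco2a1, Abcc4 and Ptger4 were called in both co-cultures in all 18 other settings. Slco2a1, the prostaglandin uptake transporter, was at 16.5, 11.6 and 13.1 CPM alone, 53.5, 57.2 and 46.4 CPM with TRMs, and 78.0, 69.2 and 41.5 CPM with monocytes. It rose 3.84-fold with TRMs (limma adjusted p = 0.000104) and 4.47-fold with monocytes (limma adjusted p = 3.61e-05). Abcc4, an exporter that carries prostaglandins among other substrates, was at 162, 168 and 162 CPM alone, 71.3, 65.4 and 49.8 CPM with TRMs, and 36.9, 61.1 and 92.9 CPM with monocytes. It fell 2.67-fold (limma adjusted p = 0.00197) and 2.77-fold (limma adjusted p = 0.00107). Neither gene overlapped between the libraries alone and either co-culture.

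Ptger4, which encodes the prostaglandin E2 receptor EP4, was at 171, 155 and 198 CPM alone, 59.9, 71.4 and 58.6 CPM with TRMs, and 46.9, 71.6 and 69.4 CPM with monocytes. All 6 co-culture libraries lay below those alone. Ptger4 fell 2.75-fold with TRMs (log2 -1.46, SE 0.18, limma adjusted p = 0.000121) and 2.82-fold with monocytes (log2 -1.50, SE 0.18, limma adjusted p = 6.99e-05). An antisense transcript covers 15.3% of its exons, and no source used here says that strand was kept. Of 9 prostanoid receptors only Ptger4 and Ptger3 had values, so no median is given. Ptger3, the EP3 receptor gene, had 101 reads in the libraries alone, 36 in the TRM libraries and 1 in the monocyte libraries. The fall in the latter (limma adjusted p = 0.0211) was lost without alone 1 (0.106) or alone 2 (0.0843).

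The other enzymes of prostaglandin handling moved in different directions. In the transport and breakdown list 1 of 6 rose and 2 fell with TRMs, and 2 rose and 2 fell with monocytes (medians -0.49 and -0.71). Besides the transporters these were Cbr3, a carbonyl reductase, which fell 5.32-fold with TRMs (42.5 ± 4.81 to 8.35 ± 3.19 CPM, SD, n = 3) and 3.63-fold with monocytes (13.9 ± 10.0 CPM), and Zadh2, a prostaglandin reductase, which rose 1.85-fold with monocytes. Without TRM 1 a second gene rose with TRMs.

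Among other terminal synthases 1 of 5 rose and 2 fell with TRMs, and 2 rose and 1 fell with monocytes (medians -0.05 and -0.78). Akr1c18, an aldo-keto reductase that can make prostaglandin F2 alpha and is also known as a steroid dehydrogenase, was at 0.602, 0.159 and 0.376 CPM alone, 5.54, 5.63 and 8.57 CPM with TRMs, and 8.24, 6.34 and 6.37 CPM with monocytes. Its log2 differences were 4.29 and 4.39, from 28 reads over the libraries alone; with log2(value + 1) the Akr1c18 values were 2.45 and 2.54. Cbr1, which can reduce prostaglandin E2, fell 2.3-fold with TRMs (33.6 ± 5.46 to 14.6 ± 2.26 CPM, SD, n = 3). Its fall with monocytes (1.72-fold, limma adjusted p = 0.046) was lost in edgeR (0.0601), with the third group left out of the fit (0.0685), and without alone 1 (0.0687), alone 2 (0.136) or alone 3 (0.0958), TRM 2 (0.0637) or TRM 3 (0.0569), or monocyte 1 (0.157).

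Akr1b3, an aldose reductase with prostaglandin F synthase activity, rose 1.63-fold with monocytes. Ptgds, the prostaglandin D synthase, fell with TRMs from 5.61 ± 2.66 to 0.787 ± 0.189 CPM (SD, n = 3; limma adjusted p = 0.00885); Ptgds was lost in limma-voom (0.0573) and without alone 3 (0.0558). Without monocyte 3 the fallen synthases with monocytes numbered 2.

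**Figure D5:**
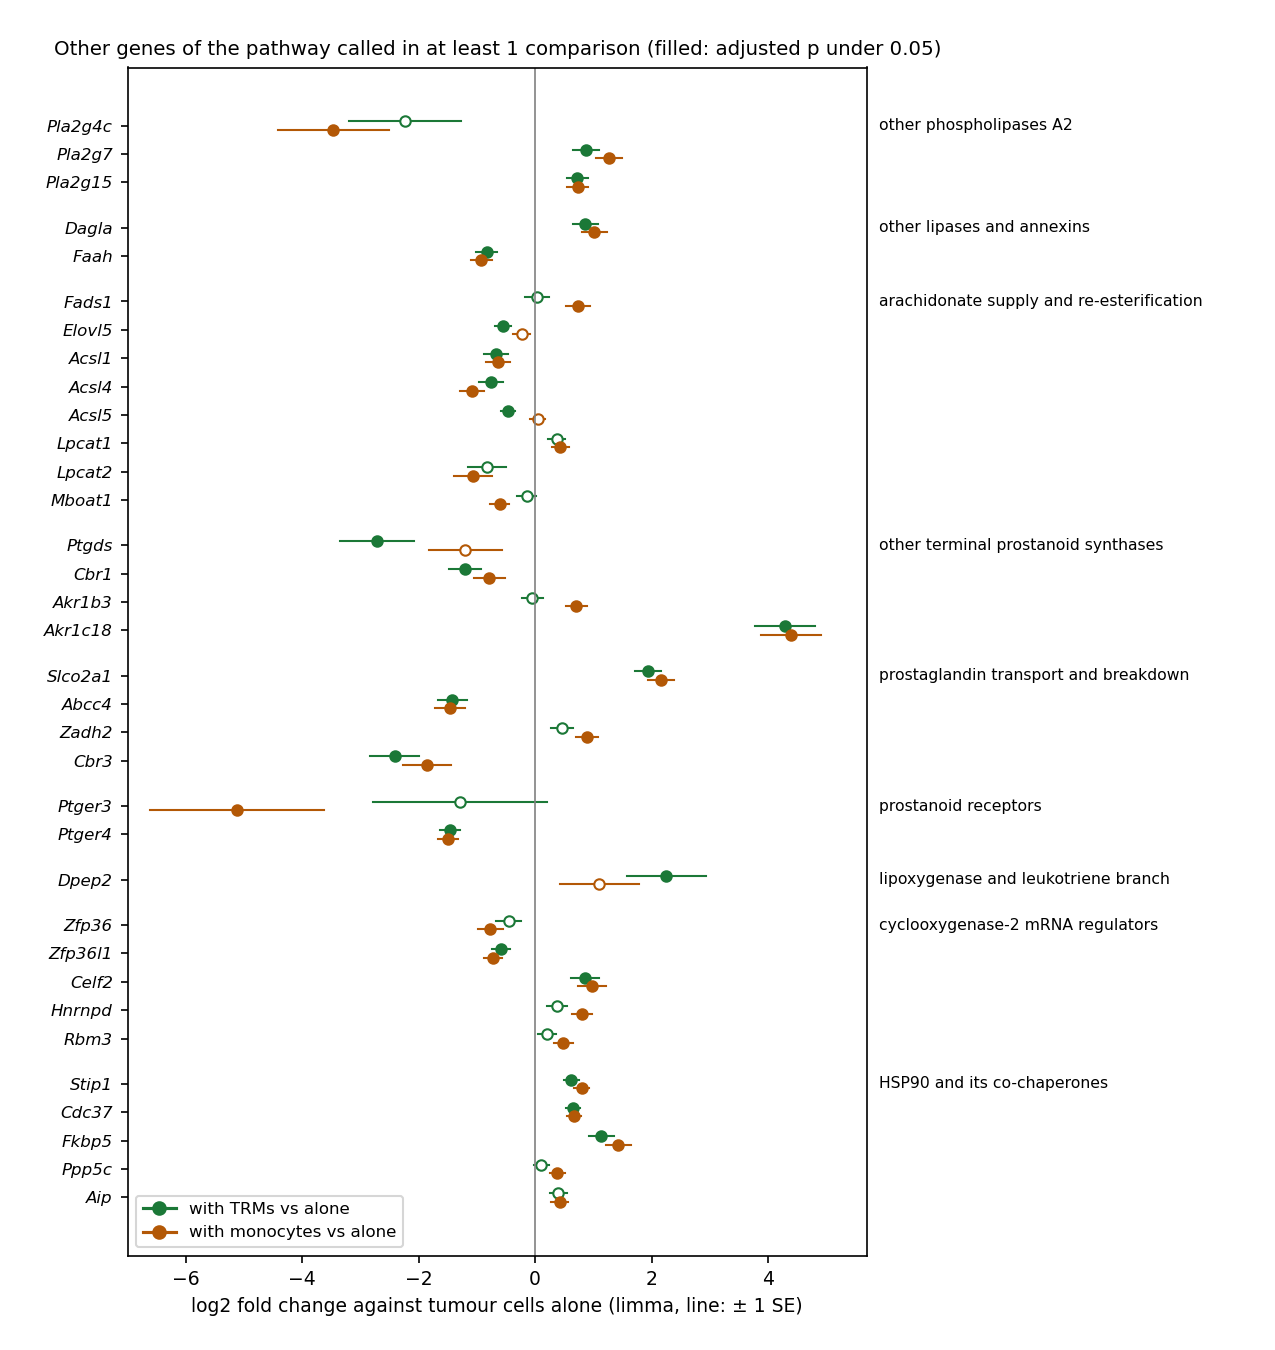
Log2 fold change against tumour cells alone (horizontal axis, ± 1 SE) for the genes of the 9 lists called in at least 1 comparison, grouped by role; filled points have an adjusted p under 0.05. Slco2a1 and Akr1c18 lie above 0, and Abcc4, Cbr3 and Ptger4 below 0, in both co-cultures.

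Around the release of arachidonic acid, 2 of 9 other phospholipases A2 rose with TRMs, and 2 rose and 1 fell with monocytes (medians -0.12 and -0.19). Pla2g15, the lysosomal enzyme, rose 1.65-fold with TRMs and 1.66-fold with monocytes. Pla2g7, the secreted enzyme that breaks down platelet-activating factor, rose 1.83-fold with TRMs and 2.41-fold with monocytes. With TRMs Pla2g15 was lost without TRM 2 (0.0827), and Pla2g7 without alone 1 (0.0526) or TRM 2 (0.075) or TRM 3 (0.0624). The member that fell was Pla2g4c, with 274 reads alone and 24 with monocytes (limma adjusted p = 0.0162); it was lost in limma-voom (0.0568) and without alone 1 (0.091) or alone 3 (0.081), and the fallen numbered 2 without TRM 3 or monocyte 2. Of 5 other lipases and annexins 1 rose and 1 fell in each co-culture (medians -0.04 and 0.17). Faah, which breaks down endocannabinoids into arachidonic acid, fell 1.78-fold with TRMs and 1.9-fold with monocytes, and Dagla, a diacylglycerol lipase, rose 1.82-fold and 2.02-fold. With TRMs Dagla was lost without alone 1 (0.056) or TRM 2 (0.0624). Anxa1, a phospholipase A2 inhibitor, was at 1720 ± 160 CPM alone, 1670 ± 187 with TRMs and 1399 ± 428 with monocytes (SD, n = 3) and passed in neither comparison.

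RNA-binding proteins that govern the stability of COX-2 mRNA were listed because Ptgs2 transcripts carry AU-rich elements. Of 12 tested, 1 rose and 1 fell with TRMs, and 3 rose and 2 fell with monocytes (medians 0.23 and 0.16). Zfp36, which encodes tristetraprolin, a factor that speeds the decay of such mRNAs, was at 2071, 1244 and 2340 CPM alone and at 1106, 861 and 1285 with monocytes, a 1.7-fold fall (limma adjusted p = 0.0182). The groups overlapped, and Zfp36 was lost without alone 1 (0.0762) or alone 3 (0.0935) or monocyte 2 (0.0829). Zfp36l1, of the same family, fell 1.5-fold with TRMs and 1.66-fold with monocytes, but an antisense transcript covers 55.9% of its exons. With TRMs Zfp36l1 was lost without alone 3 (0.0937) or TRM 2 (0.104). Celf2, which binds Ptgs2 mRNA and represses its translation, rose 1.82-fold with TRMs and 1.96-fold with monocytes. With TRMs Celf2 was lost without alone 1 (0.0899) or alone 3 (0.0821), or TRM 2 (0.0906) or TRM 3 (0.0925). Hnrnpd rose 1.75-fold with monocytes (limma adjusted p = 0.00373), which passed in all 18 other settings, and did not pass with TRMs (limma adjusted p = 0.145). Rbm3 rose 1.4-fold with monocytes (limma adjusted p = 0.0375), a call lost in 6 of the 18. With TRMs the risen numbered 2 without monocyte 1, and the fallen 3 without alone 2 and 2 without TRM 3.

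Ptges3 encodes a partner of HSP90, so HSP90 and its co-chaperones were read beside it. With TRMs 3 of 13 rose, and with monocytes 5 (medians 0.10 and 0.05), where 10.2% and 14.7% of all genes were called higher. None fell in limma, edgeR or DESeq2 or was lower at an unadjusted p under 0.05. Stip1, which links HSP70 with HSP90, rose 1.54-fold with TRMs and 1.74-fold with monocytes. Cdc37, the kinase-specific co-chaperone, rose 1.58-fold and 1.59-fold, and Fkbp5 rose 2.2-fold and 2.69-fold. The other 10 genes with TRMs and 8 with monocytes were not called. Among them were both HSP90 genes listed. Hsp90aa1 was at 228 ± 47.2 CPM alone, 183 ± 33.8 with TRMs and 178 ± 15.1 with monocytes (SD, n = 3). Hsp90ab1 was at 1238 ± 69.7, 1522 ± 59.1 and 1524 ± 66.0 CPM (SD, n = 3), and DESeq2 called it higher in both co-cultures. Ptges3 itself stayed within the intervals given above. The count with monocytes was 3 without alone 1 or alone 3, TRM 2, or monocyte 1 or monocyte 2, and 1 member fell without monocyte 3.

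Genes with profiles most like the called members were found by the root-mean-square difference of centred log2 values over the 9 libraries, among 9810 candidates. The libraries share their groups and depth, so this is a description. For Ptges the nearest was P4ha2, a collagen prolyl hydroxylase subunit, at a difference of 0.139; P4ha2 was at 55.8 ± 5.29 CPM alone, 146 ± 16.2 with TRMs and 75.6 ± 11.2 with monocytes (SD, n = 3). Camkk1 (0.168) and the serine protease gene Prss22 (0.179) followed, where the median candidate lay at 0.732. For Ptgs1 the nearest were Slpi (0.313), a protease inhibitor, P4ha3 (0.329), another prolyl hydroxylase subunit, and Naaa (0.348), a lysosomal amidase, with a median of 1.02. For Ptgs2 they were Ncoa2 (0.097), Kif1b (0.099) and Cul3 (0.105), with a median of 0.441.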

How the data were processed

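Total RNA of sorted cells was made into cDNA with SMART-Seq v4 and sequenced on an Illumina NextSeq, per the labels' protocols. Alignment with STAR 2.5 to mm10 and use of edgeR are listed per the submitters' processing notes. How reads were counted is not given in the sources used here. As values, the authors deposited a normalised signal per gene. Adding 0.5 to the reads and dividing by a scaled library size gives these values: all 111051 values (100%) gave whole reads within 1e-06 of a read. Per the file headers, the tables of comparisons that the authors deposited give log2 fold changes, a likelihood ratio score and p-values.

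Log2 of the deposited signal was tested with limma 3.58.1 in R 4.3.3, with a prior that follows mean level, group means over all 9 libraries and 6 residual degrees of freedom. A filter on recovered reads (edgeR 4.0.16, minimum count 10, minimum total 15) removed 13 genes. Tests were two-sided, with Benjamini-Hochberg adjustment over all tested genes and a call at an adjusted p under 0.05. The added 0.5 read makes folds of low genes too small. Alternatives were edgeR's quasi-likelihood test, DESeq2 1.42.0 and limma-voom on the recovered reads, log2(value + 1), other filters, library-total scaling, fits of only the groups compared, a replicate block, and leaving out each library. edgeR called 2183, 3255 and 44 genes in the 3 comparisons. The procedure was tested on simulated data.

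The members and lists were chosen with earlier results of these data known. Named were all members, called genes of the lists, and for each called member the 3 nearest profiles among genes whose highest group mean was at least 5, leaving out predicted and sex-linked genes. Lengths, positions and shared sequence come from GENCODE M21 (GRCm38). Upstream sequences come from RefSeq, where all 6 members matched. Replicates of a group differed beyond sampling noise (chi-square of 21.1 to 90.6 per gene), so none was merged.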

Additional observations from a re-analysis of the deposited data

Results flagged for a closer look

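The values of 2 members differed between the co-cultures by a direct test. Ptgs1, which encodes COX-1, had a log2 difference of -1.67 between TRM and monocyte co-cultures (limma adjusted p = 0.0148), with 34.8 ± 7.79 CPM with TRMs and 111 ± 29.1 CPM with monocytes (SD, n = 3). Ptges, the inducible prostaglandin E synthase, had a log2 difference of 0.95 (limma adjusted p = 0.0454), with 192 ± 24.9 and 101 ± 24.6 CPM (SD, n = 3). Among 18 other settings the Ptgs1 call was lost in 4 and the Ptges call in 10, edgeR among them. Groups of 3 libraries are too small for a test of single outlying libraries.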

How the results depend on the processing

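Over 18 other settings the rises of Ptges with TRMs and Ptgs1 with monocytes kept their direction and call. The number of members called with TRMs was 2 in DESeq2, with scaling by library totals and with the replicate block, each time by adding Ptgs2, and 1 to 2 with single libraries left out. With monocytes the number of members called was 1 to 3 with single libraries left out. Between the co-cultures it was 1 in edgeR, with scaling by library totals and with the third group left out of the fit, and 0 to 2 with single libraries left out. For all genes, the calls between the co-cultures numbered 336 in DESeq2, 86 in limma-voom, 75 with log2(value + 1) and 79 with the replicate block, and 0 to 134 with single libraries left out. With single libraries left out they were 1217 to 2594 genes with TRMs and 2240 to 3530 genes with monocytes.

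Among the members, directions turned for differences that were not called. Ptgs2 between the co-cultures was -0.003101 with library totals and -0.0924 to 0.228 with single libraries left out. Ptges2 with monocytes was -0.456 to 0.0396 with single libraries left out. Ptges3 with TRMs was -0.0053 in edgeR, -0.016 in DESeq2 and -0.0678 with library totals, and -0.126 to 0.187 with single libraries left out. Pla2g4a between the co-cultures was -0.0196 with library totals and -0.0899 to 0.121 with single libraries left out. The cause was not tested.

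The labels do not say that replicate numbers pair the samples. Correlations of deviations between libraries of the same number lay between -0.0246 and 0.429, and not all were over 0.1, so the numbers were not used as pairs. That 6 of 9 libraries correlated best with their own number is a hint of pairing from the data, not from the design. With the replicate block the adjusted p of Ptgs2 with TRMs was 0.0249 at a log2 difference of -0.50. Each member had at least 333 reads in every library; Ptger3 and Akr1c18 had as few as 0 and 3.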

Other observations

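Of 13 tested genes for the supply and re-esterification of arachidonic acid 4 fell with TRMs and none rose, and 4 fell and 2 rose with monocytes (median log2 differences -0.15 and -0.06), where 8.15% and 12.7% of all genes were called lower. The other 9 and 7 genes of the list were not called. None rose with TRMs in edgeR or DESeq2 either, and 2 were higher at an unadjusted p under 0.05. Acsl4, which attaches coenzyme A to arachidonic acid, fell from 350 ± 14.8 CPM alone to 209 ± 24.7 with TRMs (limma adjusted p = 0.0195) and 172 ± 53.2 with monocytes (SD, n = 3; limma adjusted p = 0.00163). With TRMs Acsl4 was lost without alone 1 (0.0567) or alone 3 (0.0694), or TRM 1 (0.0512) or TRM 2 (0.0882). The fallen genes with TRMs numbered 1 without alone 1, 0 without alone 3, 2 without TRM 1 or TRM 3, and 1 without TRM 2. With monocytes they numbered 1 without alone 1, and 2 without alone 3 or monocyte 1 or monocyte 2, and the risen numbered 0 without alone 1 or monocyte 1 and 1 without alone 2, TRM 2 or TRM 3, or monocyte 3.

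In the lipoxygenase and leukotriene branch 3 of 14 listed genes were tested. Lta4h, which makes leukotriene B4, was at 79.3 CPM alone, 76.9 with TRMs and 74.5 with monocytes and was not called. Dpep2, a dipeptidase that acts on leukotriene D4, rose with TRMs from 0.668 ± 0.363 to 2.81 ± 0.661 CPM (SD, n = 3; limma adjusted p = 0.0338), and Dpep2 was lost in edgeR (0.0661), in limma-voom (0.0589) and without alone 2 (0.0896) or TRM 1 (0.0964), TRM 2 (0.135) or TRM 3 (0.065).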
